A study of Sus scrofa with 16 samples.

Results

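Fibrillar collagens are the rod-like proteins that give connective tissue its tensile strength. The genes described here were the 7 named members *COL1A1*, *COL1A2*, *COL3A1*, *COL5A1*, *COL5A2*, *COL5A3* and *COL11A1*, taken by symbol from the 22629 genes of the deposited tables. All 7 were found as single entries and all 7 passed the filter on low counts in every comparison. They were measured by bulk RNA sequencing of left ventricle from White Yorkshire-Landrace farm pigs that were 1 month old at surgery. In IR (ischemia/reperfusion) pigs the left anterior descending coronary artery was snared for 1 h and then released, and in sham-operated pigs the suture was passed around the artery and left unsnared. Tissue was taken 4 weeks after surgery from a scar zone, immediately distal to the suture, and from the adjacent border zone. The scar zone of IR pigs held viable as well as injured myocardium, and in sham-operated pigs "scar" names only the matching position. Each surgery had 4 pigs, 2 females and 2 males, and each pig gave both zones, so that the 16 libraries come from 8 pigs in 4 groups. IR pigs were numbers 2 and 14 (female) and 9 and 11 (male), and sham-operated pigs were numbers 4 and 5 (female) and 12 and 13 (male).

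Type I collagen, the main load-bearing fibril of the heart, is a triple helix built from *COL1A1* and *COL1A2* chains. Type III collagen is built from *COL3A1* chains alone and forms thinner, more compliant fibrils, often together with type I. Type V (*COL5A1*, *COL5A2* and *COL5A3*) and type XI (*COL11A1*) are minor collagens that start fibrils and limit their diameter. In a healed infarct, activated fibroblasts deposit these collagens where cardiomyocytes were lost.

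Libraries held between 15427663 and 49045206 estimated counts, and the 4 libraries of the male IR pigs 9 and 11 (33521418 to 49045206) were deeper than the other 12 (15427663 to 27088652). The Y-linked gene *DDX3Y*, used to check the recorded sex, was at 68.4 to 103 CPM (estimated counts scaled to a common library size) in male libraries and 0.389 to 1.23 in 7 of the 8 female libraries. The scar library of female pig 14 had 4.49 CPM, 5.54% of the male mean, so the fitted differences of the members between IR and sham-operated scar zone are also given without this pig. The 7 listed cardiomyocyte markers found in the table were detected in every library and summed to 44350 to 66497 TPM (transcripts scaled to a common total).

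The levels of the members, which TPM allows to be compared between genes because it is scaled per transcript length, spanned a wide range. *COL3A1* was the most abundant, with a median of 833 TPM over the 16 libraries and rank 86 among all genes. *COL1A2* (median 262 TPM) and *COL1A1* (215 TPM) followed. Between the 2 type I genes the order was not fixed, since *COL1A1* exceeded *COL1A2* in the IR scar libraries of pigs 2 and 9. The type V genes *COL5A2* (51.3 TPM) and *COL5A1* (47.5 TPM) lay close together with overlapping ranges, and *COL5A3* had a median of 14.4 TPM. *COL11A1* was lowest at 0.337 TPM, rank 13459, and was detected with 7 to 5479 estimated counts in each library, above the floor of 3 counts.

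*COL1A1* had scar zone levels of 284, 1588, 2026 and 161 TPM in IR pigs 2, 9, 11 and 14, and of 286, 214, 175 and 172 TPM in sham-operated pigs 4, 5, 12 and 13. Its border zone levels were 295, 145, 257 and 166 TPM in the same IR pigs and 147, 224, 199 and 216 TPM in the sham-operated pigs. The scar pieces of both male IR pigs stood far above all other libraries, while those of the female IR pigs lay within or just below the sham-operated range in TPM. On the CPM scale, which the fits use, pig 2 was at 1505 CPM, just above the highest sham-operated scar library at 1413 CPM. The groups overlapped on both scales. In bulk tissue, more cells of a type and more RNA per cell cannot be told apart.

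*COL1A2*, which encodes the second chain of type I, had scar zone levels of 246, 1455, 2052 and 207 TPM in IR pigs 2, 9, 11 and 14. The sham-operated scar libraries had 334, 303, 239 and 227 TPM. *COL3A1* had 688, 4613, 3927 and 528 TPM in the IR scar libraries and 1023, 947, 760 and 784 TPM in the sham-operated scar libraries. For *COL3A1* both female IR pigs lay below every sham-operated pig and both male IR pigs lay above them. All 8 border zone libraries of *COL1A2* lay between 179 and 306 TPM and all 8 of *COL3A1* between 599 and 987 TPM.

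The type V genes *COL5A1* and *COL5A2* again had their highest values in both male IR pigs. *COL5A1* had 56.8, 207, 145 and 30.5 TPM in IR pigs 2, 9, 11 and 14 against 70.0, 54.2, 43.6 and 41.6 TPM in sham-operated pigs 4, 5, 12 and 13. *COL5A2* had 41.4, 237, 190 and 36.1 TPM against 59.9, 54.6, 48.7 and 48.9 TPM. *COL5A3*, the third type V chain, had 17.0, 30.2, 18.9 and 12.1 TPM against 19.2, 17.6, 12.5 and 14.3 TPM, and its groups overlapped with a single high library in pig 9. On the CPM scale that library was at 106 CPM against 64.1 to 98.7 CPM in the sham-operated scar libraries.

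*COL11A1*, the gene with the smallest counts, had scar zone levels of 0.981, 36.2, 6.49 and 0.293 TPM in IR pigs 2, 9, 11 and 14. The sham-operated scar libraries had 0.0739, 0.246, 0.556 and 0.400 TPM. The library of pig 9 held 5479 estimated counts and that of sham-operated pig 4 held 8, so that the lowest values carry large counting error. Pigs 2, 9 and 11 exceeded every sham-operated pig, and pig 14 lay within their range.

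**Figure D1:**
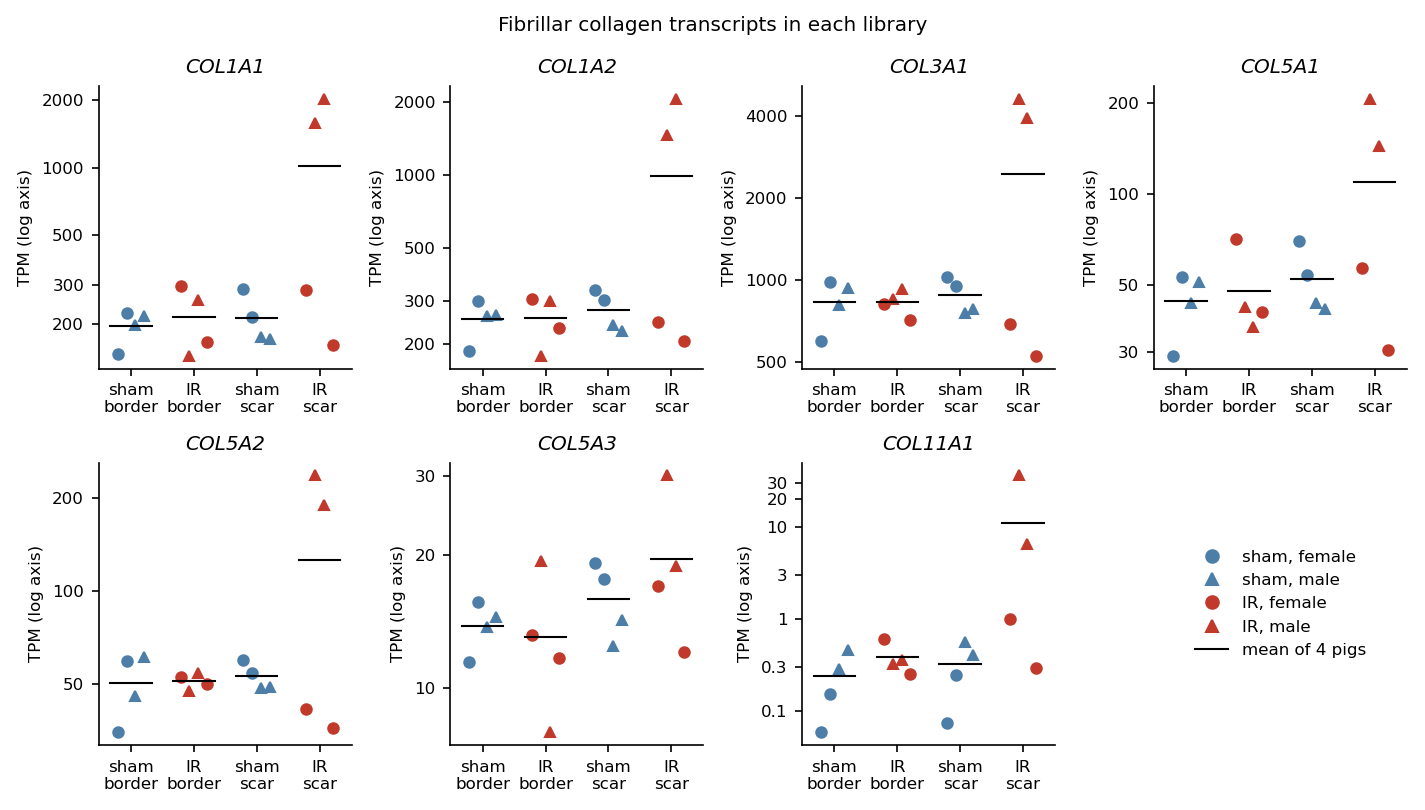
TPM of each fibrillar collagen gene (log axis) in the 16 libraries by surgery and zone, with circles for females, triangles for males and a line at the mean of 4 pigs. In the IR scar zone the 2 male pigs sit far above all other libraries for 6 of the 7 genes, for example at 1588 and 2026 TPM for *COL1A1*, while *COL5A3* stays between 7.96 and 30.2 TPM throughout.

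In the scar zone, IR against sham, the fitted log2 fold changes of all 7 members were positive and none reached an adjusted p of 0.05. By edgeR's quasi-likelihood test *COL11A1* had the largest, 4.58 ± 1.23 (SE), followed by *COL1A1* at 1.96 ± 0.64, *COL1A2* at 1.59 ± 0.61 and *COL3A1* at 1.13 ± 0.55. *COL5A2* (0.92 ± 0.47) and *COL5A1* (0.76 ± 0.41) had smaller values, and *COL5A3* was at 0.05 ± 0.18. A gene was called at an adjusted p of at most 0.05 (Benjamini-Hochberg over all genes tested) and a fold change of at least 2. With edgeR 0 of the 7 members and 0 of 14023 genes were called (0.0%), the adjusted p being 0.438 for *COL11A1*, *COL1A1* and *COL1A2*. At an unadjusted p of at most 0.05 and the same fold change, *COL11A1*, *COL1A1* and *COL1A2* were higher in IR, 3 of 7, where 2.74% of all genes tested were higher. DESeq2 called *COL11A1* alone among the members (adjusted p = 0.0381) and 37 genes higher in all.

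The fit compares mean counts, to which the 2 male libraries contribute most. With each pig weighted alike on the log2 CPM scale, *COL1A1* differed by 1.40 (two-sided exact permutation p = 0.171 over 4 pigs against 4), *COL3A1* by 0.70 (exact p = 0.429) and *COL11A1* by 3.24 (exact p = 0.0857). The smallest p this design allows is 0.0286, and the 14 member tests all had an adjusted exact p of at least 0.85. None of the 7 members had groups free of overlap in the scar zone, against 4.85% of 14011 genes tested. Without pig 14 the fitted log2 fold changes became 2.29 for *COL1A1*, 1.90 for *COL1A2*, 1.44 for *COL3A1*, 1.03 for *COL5A1*, 1.19 for *COL5A2*, 0.16 for *COL5A3* and 4.97 for *COL11A1*, and 6 of 7 members passed the unadjusted threshold, with adjusted p still 0.144 or above. Without pig 2, 5 of 7 passed it. Of all genes, 686 of 14283 were higher at that threshold without pig 14 and 612 of 14238 without pig 2. With every pig it was 384 of 14023. Without pig 11 *COL1A1* was at 1.25, and without pig 9 *COL11A1* was at 2.84. With sex as a covariate only *COL11A1* passed the unadjusted threshold (3.84 ± 0.85).

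The border zone log2 fold changes, IR against sham, lay between -0.14 for *COL5A3* and 0.68 ± 0.51 for *COL11A1*. The values for *COL1A1*, *COL1A2* and *COL3A1* were 0.13 ± 0.26, 0.01 ± 0.22 and -0.03 ± 0.18. By edgeR 0 of 7 members were called at an adjusted p, as were 0 of 13728 genes (0.0%), and DESeq2 called 0 members. At the unadjusted p 0 of 7 were higher, where 0.517% of all genes were. No member had groups free of overlap, against 2.03% of genes. The values of *COL1A2*, *COL3A1* and *COL5A2* changed sign between scalings, and those of *COL1A1*, *COL5A1* and *COL5A3* when single pigs were left out. No direction can be given for any of these genes. Without pig 13 the count at the unadjusted p was 1.

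The difference between the zones' IR effects was tested in a fit of all 16 libraries. The effect was larger in the scar zone by 3.91 ± 1.41 on the log2 scale for *COL11A1*, 1.84 ± 0.73 for *COL1A1* and 1.60 ± 0.70 for *COL1A2*. These 3 of 7 members passed the unadjusted threshold in edgeR, where 1.32% of all genes were higher, and none of the members or of the 14278 genes passed the adjusted one (0.0%, adjusted p = 1.00 for the 3 genes). DESeq2 called 0 members after adjustment. With each pig kept as a block only *COL11A1* passed the unadjusted p (2.86 ± 1.28, edgeR adjusted p = 0.702). *COL3A1* (1.18 ± 0.62), *COL5A2* (0.93 ± 0.54), *COL5A1* (0.69 ± 0.51) and *COL5A3* (0.20 ± 0.28) did not pass. The count of 3 depended on single pigs. It was 0 without pig 9 or 13, 1 without pig 5, 11 or 12, 5 without pig 14 and 6 without pig 2. Of all genes 80 and 118 were higher without pigs 9 and 13, 316 and 350 without pigs 14 and 2, and 189 with every pig.

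Each pig served as its own reference when the scar piece was compared with the border piece. In IR pigs *COL1A1* was 8.06-fold and 6.42-fold higher in the scar piece than in the border piece of pigs 9 and 11 on the CPM scale, against 0.972 and 1.05 in pigs 2 and 14. *COL3A1* had folds of 3.98 and 3.44 in pigs 9 and 11 and of 0.850 and 0.796 in pigs 2 and 14. *COL11A1* had folds of 79.1 and 14.4 in pigs 9 and 11 and of 1.62 and 1.26 in pigs 2 and 14. The split between male and female IR pigs thus held within animals for these genes. *COL5A3* had folds of 1.30, 1.15, 1.92 and 1.12 in pigs 2, 9, 11 and 14, without that split on the CPM scale. In TPM its folds were 1.29, 1.56, 2.37 and 1.03, higher in both males than in both females. In sham-operated pigs the folds of *COL1A1* were 1.63, 1.00, 0.909 and 0.843, and pig 4 gave the highest fold of the 4 for 6 of the members, *COL11A1* being the exception.

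By edgeR, scar against border zone in IR pigs gave log2 fold changes of 4.38 ± 1.18 for *COL11A1*, 1.94 ± 0.68 for *COL1A1* and 1.69 ± 0.64 for *COL1A2*. These 3 of 7 members passed the unadjusted threshold, where 1.69% of all genes were higher. Neither the members nor any of 14170 genes passed after adjustment (0.0%, adjusted p = 0.989), and DESeq2 called 0 members. With each pig as a block only *COL11A1* passed the unadjusted threshold (3.27 ± 1.09, edgeR adjusted p = 0.431). The count was 1 without pig 9 or pig 11 and 6 without pig 2 or pig 14. Of all genes 67 and 98 were higher without pigs 9 and 11, 376 and 378 without pigs 2 and 14, and 239 with every pig. In sham-operated pigs the 7 values lay between 0.07 and 0.46. There 0 of 7 members were higher at the unadjusted p, against 0.029% of genes, and edgeR and DESeq2 called 0 members after adjustment (0.0% of 13803 genes in edgeR). An exact permutation test of the within-pig scar-minus-border difference of log2 CPM, 4 IR against 4 sham-operated pigs, gave p = 0.20 for *COL1A1* and for *COL11A1*, and an adjusted p of 0.457 for all 7 members.

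The sex difference of the IR effect in the scar zone was tested as the interaction of sex and surgery, a test chosen with earlier results of these data known. The IR effect was larger in males by 3.15 ± 0.43 on the log2 scale for *COL1A1* (edgeR adjusted p = 0.0243), 3.0 ± 0.37 for *COL1A2* (0.0179) and 2.73 ± 0.23 for *COL3A1* (0.0108). It was larger by 2.25 ± 0.18 for *COL5A2* (edgeR adjusted p = 0.0105) and by 2.10 ± 0.34 for *COL5A1* (0.0376). These 5 of 7 members were called, where 0.998% of 14624 genes were called with a larger effect in males. *COL11A1* (3.0 ± 1.25, edgeR adjusted p = 0.252) and *COL5A3* (0.75 ± 0.26, 0.191) were not. *COL5A2* and *COL3A1* ranked 2 and 3 of all genes by p.

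Within that fit the 2 male IR pigs differed from the 2 male sham-operated pigs by 3.01 ± 0.32 for *COL1A1*, 2.58 ± 0.27 for *COL1A2* and 2.06 ± 0.17 for *COL3A1*. Of the 7 members 6 were called higher in males, where 3.19% of genes were, with *COL11A1* at 4.95 ± 0.81 and *COL5A3*, at 0.43 ± 0.19 (edgeR adjusted p = 0.202), the exception. Without sham-operated pig 12 or pig 13, 2 members were called in males, and the genes called higher among all tested fell from 466 of 14624 to 33 of 15049 and 55 of 15063. In females 0 of 7 members were called by edgeR after adjustment, where 0.00684% of genes were called higher. There *COL3A1* was at -0.68 ± 0.16 (edgeR adjusted p = 0.224) and *COL5A2* at -0.54 ± 0.13 (edgeR adjusted p = 0.218). *COL1A1* was at -0.14 ± 0.29 and *COL11A1* at 1.95 ± 0.94 in females. Both female results rest on pigs 2 and 14, and without pig 14 *COL1A1* was at 0.18, *COL3A1* at -0.54, *COL5A2* at -0.49 and *COL11A1* at 2.53.

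The calls of the sex difference depended on single pigs, since each sex held 2 pigs per surgery. Without pig 9 or pig 11, *COL5A1* was no longer called (edgeR adjusted p = 0.0639 and 0.0527), leaving 4. Without pig 14, *COL3A1*, *COL5A1* and *COL5A2* were called. Without sham-operated pig 4 or pig 5, *COL3A1* and *COL5A2* were called, and without sham-operated pig 12 or pig 13 none of the 7 was, with the lowest member adjusted p in edgeR at 0.0647 and 0.0592. In those 2 settings no gene of 15049 and 15063 was called with a larger effect in males, so that every such call was lost, collagens or not. Of all genes 146 were called with every pig, 115 and 104 without pigs 9 and 11, 23 without pig 14, and 18 and 43 without pigs 4 and 5. The size of the difference stayed between 2.73 and 3.57 for *COL1A1* and between 2.59 and 2.89 for *COL3A1* whichever pig was left out. The same interaction in the border zone was -0.18 ± 0.55 for *COL1A1* and 0.23 ± 0.35 for *COL3A1*. There edgeR and DESeq2 called 0 of 7 members after adjustment, edgeR called 0.00702% of 14244 genes higher, and *COL11A1* alone passed the unadjusted threshold in edgeR (-2.02 ± 0.84, edgeR adjusted p = 0.695). With 2 pigs of each sex per surgery, sex and anything else that differed between these pigs cannot be told apart.

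**Figure D2:**
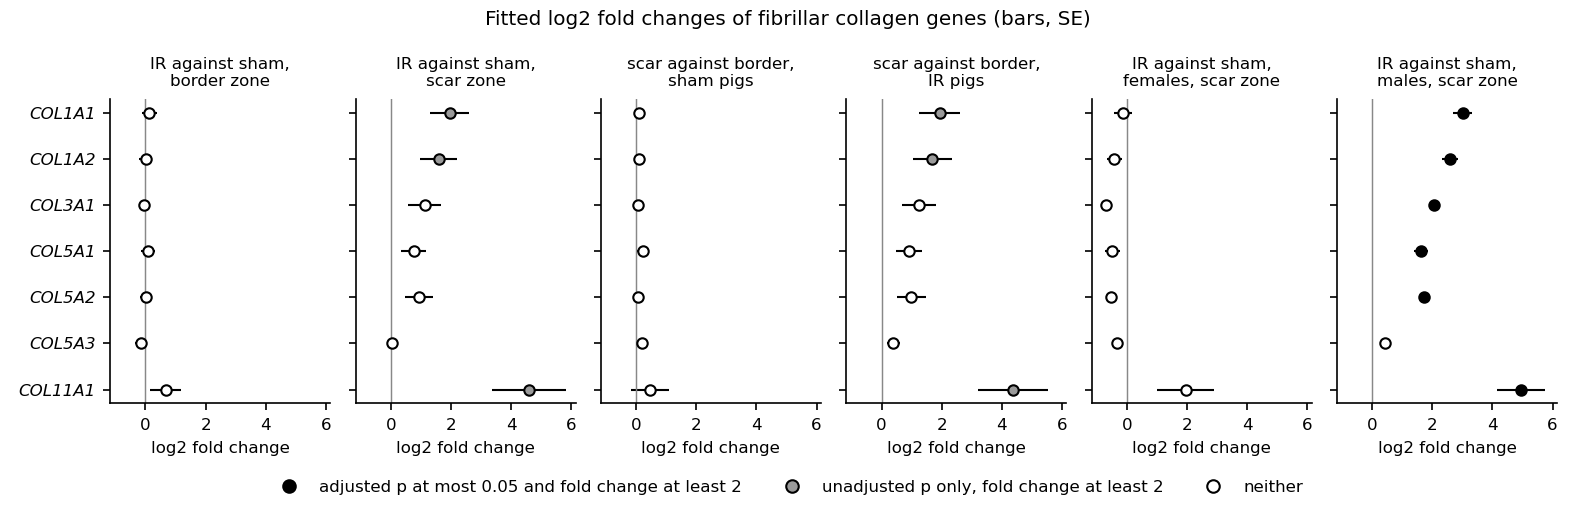
Fitted log2 fold change of each member with its SE in 6 comparisons, black where the adjusted threshold was passed, grey where only the unadjusted one was and white where neither was. *COL1A1*, *COL1A2* and *COL11A1* are grey in the scar zone (1.96, 1.59 and 4.58), and 6 of 7 genes are black in males, against none in females or in the border zone.

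The 7 members together took 975 to 1792 TPM in 14 of the 16 libraries and 8166 and 8364 TPM in the scar libraries of pigs 9 and 11. This was 0.817% and 0.836% of all TPM in those libraries, against 0.0975% to 0.179% in the other 14. The make-up of the sum also differed. *COL1A1* formed 16.5% to 24.2% of it in the IR scar libraries and 13.4% to 16.0% in the sham-operated scar libraries. *COL3A1* formed 46.9% to 56.5% and 57.1% to 60.8%, respectively. Neither range overlapped in the scar zone, so the 2 female IR pigs, with sums of 1334 and 975 TPM, shared this make-up. In the border zone both overlapped. *COL1A1* formed 11.3% to 19.0% there in IR and 13.6% to 14.6% in sham-operated pigs, and *COL3A1* 52.5% to 66.2% and 59.0% to 60.7%. The border library of IR pig 2, at 19.0% *COL1A1* and 52.5% *COL3A1*, lay within the IR scar ranges. *COL5A1*, *COL5A2* and *COL5A3* formed their smallest shares of the scar libraries in pigs 9 and 11. *COL5A3* was at 0.369% and 0.225% of the sum there, against 0.976% to 1.27% in the other 6 scar libraries.

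**Figure D3:**
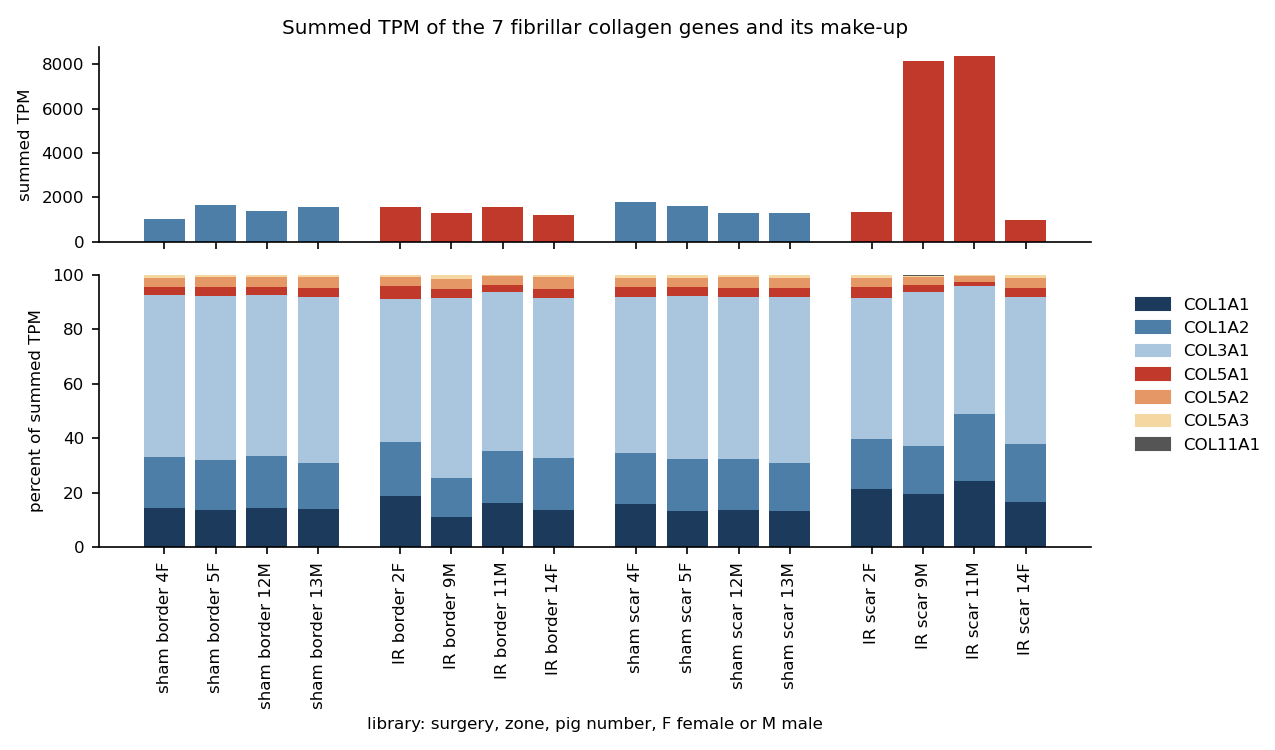
Summed TPM of the 7 fibrillar collagen genes (upper bars, coloured by surgery) and the percent of it from each gene (lower bars) in every library. The scar libraries of IR pigs 9 and 11 reach 8166 and 8364 TPM, and all 4 IR scar libraries have a *COL1A1* share of at least 16.5%, the sham-operated scar libraries at most 16.0%.

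Ratios between chains, taken within a library and so free of library scaling, measured this make-up directly. The ratio of *COL1A1* to *COL3A1*, type I against type III, was 0.413, 0.344, 0.516 and 0.304 in the scar zone of IR pigs 2, 9, 11 and 14, a mean of 0.394 ± 0.093 (SD, n = 4). In the scar zone of sham-operated pigs 4, 5, 12 and 13 it was 0.280, 0.226, 0.230 and 0.220, a mean of 0.239 ± 0.028 (SD, n = 4). All 4 IR pigs, females included, lay above all sham-operated pigs, a log2 difference of 0.70 (two-sided exact permutation p = 0.0286, adjusted p = 0.129 over 18 ratio tests). The p is the smallest that 4 against 4 can give. Without pig 14 the log2 difference was 0.82.

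In the border zone the same ratio was 0.362, 0.170, 0.276 and 0.231 in IR pigs 2, 9, 11 and 14 and 0.226 to 0.245 in the sham-operated pigs, and the groups overlapped (exact permutation p = 0.657). Within animals the ratio was higher in the scar than in the border piece in 4 of 4 IR pigs. The within-pig log2 change averaged 0.63 ± 0.40 in IR and 0.01 ± 0.13 in sham-operated pigs (SD, n = 4 each; exact permutation p = 0.0286, adjusted p = 0.129). The groups met almost without a gap, IR pig 2 at 0.192 and sham-operated pig 4 at 0.190, and the other 3 IR pigs were at 0.395 to 1.02.

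The ratio of *COL5A1* to *COL1A1*, type V against type I, was 0.200, 0.130, 0.0714 and 0.190 in the scar zone of IR pigs 2, 9, 11 and 14 and 0.241 to 0.253 in the sham-operated pigs. It was lower in all 4 IR pigs, by 0.85 on the log2 scale (exact permutation p = 0.0286, adjusted p = 0.129). The within-pig change was -0.70 ± 0.44 in IR pigs and 0.15 ± 0.12 in sham-operated pigs (SD, n = 4 each; exact permutation p = 0.0286, adjusted p = 0.129). In the border zone the groups overlapped, with a log2 difference of 0.00 (exact permutation p = 1). This ratio and that of *COL1A1* to *COL3A1* share *COL1A1*, and so the 2 results are not separate.

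The ratio of the type I chains, *COL1A1* to *COL1A2*, was 1.16, 1.09, 0.987 and 0.777 in the scar zone of IR pigs 2, 9, 11 and 14 and 0.858, 0.706, 0.732 and 0.757 in the sham-operated pigs. The log2 difference was 0.38 (exact permutation p = 0.0571, adjusted p = 0.147), pig 14 lying within the sham-operated range. The type V ratio of *COL5A1* to *COL5A2* averaged 0.964 ± 0.276 in IR and 0.977 ± 0.141 in sham-operated scar zone (SD, n = 4 each), with a log2 difference of -0.05 (exact permutation p = 0.771). *COL5A3* to *COL5A1* was 0.146 and 0.130 in pigs 9 and 11 and 0.274 to 0.396 in the other 6 scar libraries, and the groups overlapped (exact permutation p = 0.371). *COL11A1* to *COL5A1* was 0.175 and 0.0448 in pigs 9 and 11, 0.0173 in pig 2 and 0.00962 in pig 14, against 0.00106 to 0.0127 in the sham-operated scar libraries (exact permutation p = 0.0857). Of the 18 ratio tests, 4 had an exact p of 0.0286, and none passed after adjustment.

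**Figure D4:**
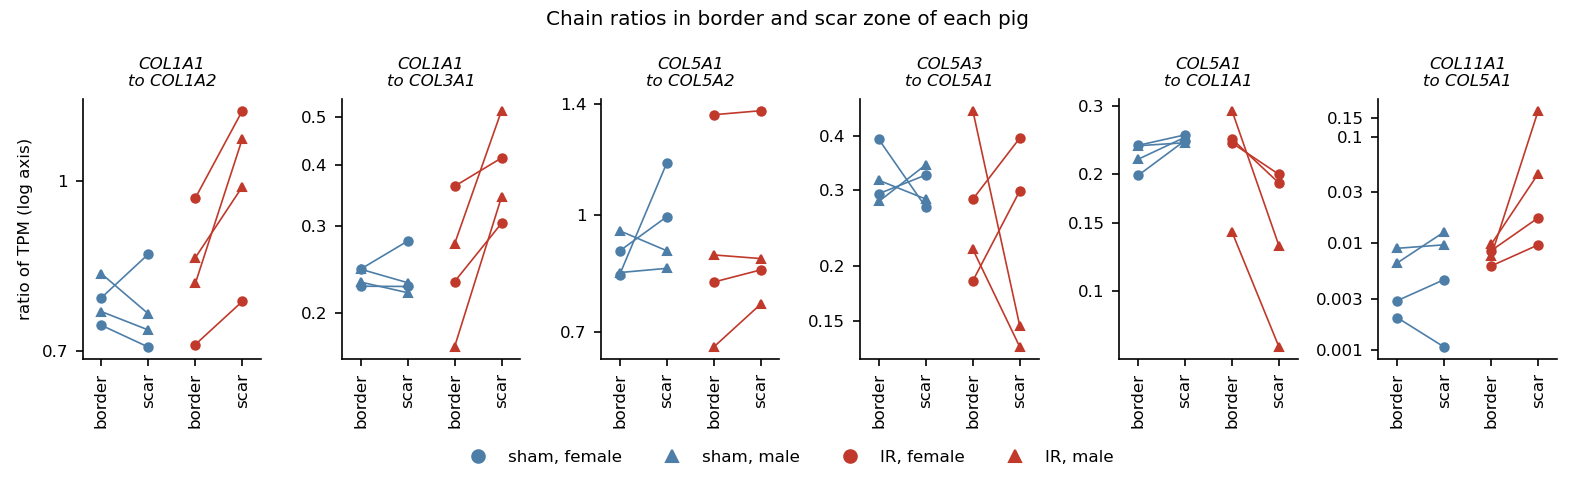
Ratio of TPM between pairs of fibrillar collagen genes (log axis) in the border and scar zone of each pig, joined by a line, with circles for females and triangles for males. *COL1A1* to *COL3A1* goes up and *COL5A1* to *COL1A1* goes down from border to scar zone in all 4 IR pigs, with scar zone values apart from those of the sham-operated pigs.

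Over the 16 libraries, 2 from each of 8 pigs, the members other than *COL5A3* had high correlations with each other. Pearson's r of log2 CPM was 0.984 between *COL1A1* and *COL1A2*, and 0.990 between *COL3A1* and *COL5A2*, which are neighbouring genes in the RefSeq annotation of Sscrofa11.1. Against the mean log2 CPM of *COL1A1*, *COL1A2* and *COL3A1*, r was 0.970 for *COL5A2*, 0.912 for *COL5A1* and 0.808 for *COL11A1*. For *COL5A3* it was 0.383, and 0.251 after the 4 group means were subtracted. These values are descriptions and lean on 2 libraries. Without the scar libraries of pigs 9 and 11 (n = 14), r was 0.854 between *COL1A1* and *COL1A2* and 0.920 between *COL3A1* and *COL5A2*. Against the mean it was then 0.771 for *COL5A2*, 0.737 for *COL5A1*, 0.051 for *COL11A1* and 0.017 for *COL5A3*.

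Among 12138 other genes listed by symbol, *SPARC*, a collagen-binding matricellular protein, was the most like this mean (r = 0.975, n = 16 libraries). It was followed by *P3H3* (0.967) and *FKBP10* (0.962), which act on procollagen in the endoplasmic reticulum, then *EFEMP2* (0.961), *COL6A3* (0.960), *RARRES2* (0.960), *CERCAM* (0.956), *FSTL1* (0.954), *GLT8D2* (0.954) and *PCOLCE* (0.953), the enhancer of procollagen C-proteinase. After the group means were subtracted, 7 of these 10 were again among the 10 most like it, with *ANGPTL2* (0.954), *DCN* (0.948) and *GNB1* (0.947) in place of the others. Without the scar libraries of pigs 9 and 11, r of these 13 genes with the mean lay between 0.491 (*RARRES2*) and 0.811 (*PCOLCE*), *SPARC* being at 0.756.

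The genes that make, bind and remove fibrillar collagen were described by lists chosen with earlier results of these data known. In the scar zone, IR against sham, the 31 genes of collagen biosynthesis, processing and crosslinking had a median log2 fold change of 0.36, with 27 of 31 positive. The median of all 14023 genes was 0.03, with 53.9% positive. By edgeR, 5 of the 31 passed the unadjusted threshold, all higher in IR, where 2.74% of all genes were. They were *P4HA3* (2.75 ± 0.86), a subunit of prolyl 4-hydroxylase, *LOX* (1.76 ± 0.62) and *LOXL1* (1.10 ± 0.38), which crosslink fibrils, *FKBP10* (1.25 ± 0.42) and *PCOLCE* (1.05 ± 0.45). *SERPINH1*, the collagen chaperone, was at 0.17 ± 0.15. *ADAMTS3* (-0.65 ± 0.38) and *COLGALT2* (-0.15 ± 0.25) had the lowest values. The 5 passing genes became 2 without pig 9 or pig 11, 3 without sham-operated pig 5 and 9 without pig 2 or pig 14, and the median was 0.20 without pig 9 and 0.22 without pig 11. In the fit with the sexes apart, *P4HA3* was at 3.87 ± 0.54 in males and -0.14 ± 0.58 in females, and *LOX* at 2.36 ± 0.23 and 0.06 ± 0.23. There 10 of the 31 genes were called higher in males by edgeR after adjustment, where 3.19% of all genes were, and 0 in females (0.00684% of all genes). The count in males was 6 without pig 9, 7 without pig 11, 1 without sham-operated pig 12 and 2 without sham-operated pig 13. The sex difference was called for 4 of 31, where 0.998% of all genes were, for 1 without pig 14, for 2 without sham-operated pig 5 and for 0 without sham-operated pig 4, 12 or 13.

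Of the 14 fibril-associated genes, 13 were tested, all 13 had positive values and 10 passed the unadjusted edgeR threshold, where 2.74% of all genes were higher, with a median of 1.85. Without pig 9 the count was 5 and the median 1.10. *COMP* (5.76 ± 1.65) and *TNC* (3.48 ± 0.95), matrix glycoproteins of repair and of tendon and cartilage, were highest. Of the small leucine-rich proteoglycans, *FMOD* was at 3.22 ± 0.78 and *BGN* at 1.82 ± 0.46, while *ASPN* at 0.93 ± 0.35, *LUM* at 0.68 ± 0.34 and *DCN* at 0.62 ± 0.38 did not pass. With the sexes apart, *TNC* was at 4.72 ± 0.37 in males and 0.03 ± 0.34 in females, *SPARC* at 1.98 ± 0.14 and -0.15 ± 0.13, and *POSTN* at 2.93 ± 0.44 and -0.41 ± 0.41. In that fit edgeR called 12 of the 13 higher in males after adjustment, against 3.19% of all genes, and 0 in females, against 0.00684%. Without sham-operated pig 12 or pig 13 the 12 became 5. The sex difference was called for 9 of 13, against 0.998% of all genes, for 6 without pig 2, for 2 without pig 14, for 3 and 4 without sham-operated pigs 4 and 5, and for 0 without sham-operated pig 12 or pig 13. Of 13 turnover genes, 9 were tested and *MMP9*, a gelatinase, passed (3.84 ± 1.56), with a median of 0.73. The count was 0 without pig 4, 5, 9, 12 or 13 and 3 without pig 2 or pig 14, and without pig 9 the median was 0.22. With the sexes apart, the median of the 9 was 1.27 in males, with 6 called higher by edgeR after adjustment (0 without sham-operated pig 12 or pig 13, 4 without pig 9), and -0.22 in females, with 0 called. *FAP*, a protease of activated fibroblasts, was at 1.00 ± 0.50, and the inhibitors *TIMP3* and *TIMP4* were lowest at 0.00 and -0.43 ± 0.18. Of the 7 collagen receptors 0 passed either threshold in edgeR with all pigs (median 0.23), and 1 passed the unadjusted one without pig 2 or pig 14. The median was 0.09 without pig 9 and 0.38 without pig 14. With all pigs the values ran from *ITGA11* at 0.87 ± 0.46 and *ITGA2* at 0.45 ± 0.37 to *DDR2* at 0.14 ± 0.29 and *ITGA1* at -0.29 ± 0.22. With the sexes apart, *ITGA11* was called in males (1.49 ± 0.33, edgeR adjusted p = 0.0373), and the count of 1 became 0 when pig 2, 4, 5, 9, 12, 13 or 14 was left out. Of the 4 fibrillar collagen genes outside the 7, *COL27A1* (0.07 ± 0.31) and *COL11A2* (0.05 ± 0.42) were tested and neither passed. In the scar zone comparison of all 4 IR with all 4 sham-operated pigs, none of the genes of these lists was called by edgeR after adjustment, and in the border zone none passed the unadjusted threshold in edgeR.

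Some marker lists of the cell types that a ventricular piece can hold had their highest summed levels in the scar libraries of pigs 9 and 11. The 8 fibroblast markers summed to 2153 and 2537 TPM in the scar libraries of pigs 9 and 11, against 679 and 575 TPM in those of pigs 2 and 14 and 693 to 933 TPM in the sham-operated scar libraries. By edgeR 8 of 8 had positive values (53.9% of all genes) and *FBLN1* passed the unadjusted threshold (1.41 ± 0.46), where 2.74% of all genes were higher, while *PDGFRA* was at 0.26 ± 0.38 and *DDR2* at 0.14 ± 0.29. The count of 1 became 0 without pig 11 and 2 without pig 2 or pig 14. With the sexes apart, the median was 1.06 in males, with 4 of 8 called higher by edgeR after adjustment (0 without sham-operated pig 12 or pig 13), and -0.28 in females, with 2 of 8 positive and 0 called. In that fit edgeR called 3.19% of all genes higher in males and 0.00684% in females. *DCN*, *LUM* and *DDR2* are also in the lists above. The 8 leucocyte markers summed to 118 and 94.1 TPM in pigs 9 and 11 and to 28.7 to 62.3 TPM in the other 6 scar libraries. The 6 mural cell markers summed to 803 and 774 TPM against 353 to 544 TPM in the other 6 scar libraries. Border zone sums were 295 to 707 TPM in IR and 294 to 441 TPM in sham-operated pigs. In the scar zone the mural markers had a median log2 fold change of 0.06, with *MYH11* at -0.05 ± 0.43 and *RGS5* at -0.14 ± 0.19. Leaving out single pigs moved that median between -0.04 (pig 9) and 0.39 (pig 12). Among them *CNN1* passed the unadjusted edgeR threshold in both zones, at 1.17 ± 0.43 (scar, where 2.74% of all genes were higher) and 1.85 ± 0.73 (border, 0.517%). In the scar zone no mural marker passed it without pig 2, 4, 11, 12 or 13.

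The 6 cartilage markers, of which 5 are in the table, summed to 17.7 TPM in pig 9 and to 1.01 to 3.09 TPM in the other 7 scar libraries. *ACAN* supplied 11.6 TPM of it, and pig 9 was also the library with the highest *COL11A1*. The epicardial and mesothelial markers *WT1* and *KRT8*, the 2 of 5 found in the table, summed to 36.1 and 26.8 TPM in pigs 9 and 11 and 5.38 to 10.2 TPM in the other 6 scar libraries. Their border zone sums were 7.07 to 22.6 TPM in IR and 5.70 to 13.2 TPM in sham-operated pigs. The 6 endothelial markers (283 to 367 TPM in IR, 307 to 369 TPM in sham-operated scar libraries), the 4 adipocyte markers (0.827 to 1.56 and 0.856 to 1.11 TPM) and the 7 cardiomyocyte markers (50940 to 56049 and 45695 to 55714 TPM) overlapped between the groups. Single cardiomyocyte markers differed from their sum. *TNNI3* was at 5368 and 4316 TPM in the scar libraries of pigs 9 and 11, against 6743 TPM or more in all others. Its log2 fold change in the scar zone was -0.48 ± 0.27, while 4 of the 7 cardiomyocyte markers had positive values (median 0.00). No marker list had a gene at 0 in all libraries of a group. The part of these cell types in the collagen values was not tested. The border libraries of pigs 9 and 11 had 33521418 and 49045206 estimated counts, near to or above the 36509911 and 34251150 of their scar libraries. They held 1283 and 1587 TPM of the 7 collagens, within the range of the other libraries. The part of library depth in the collagen values was not tested.

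**Figure D5:**
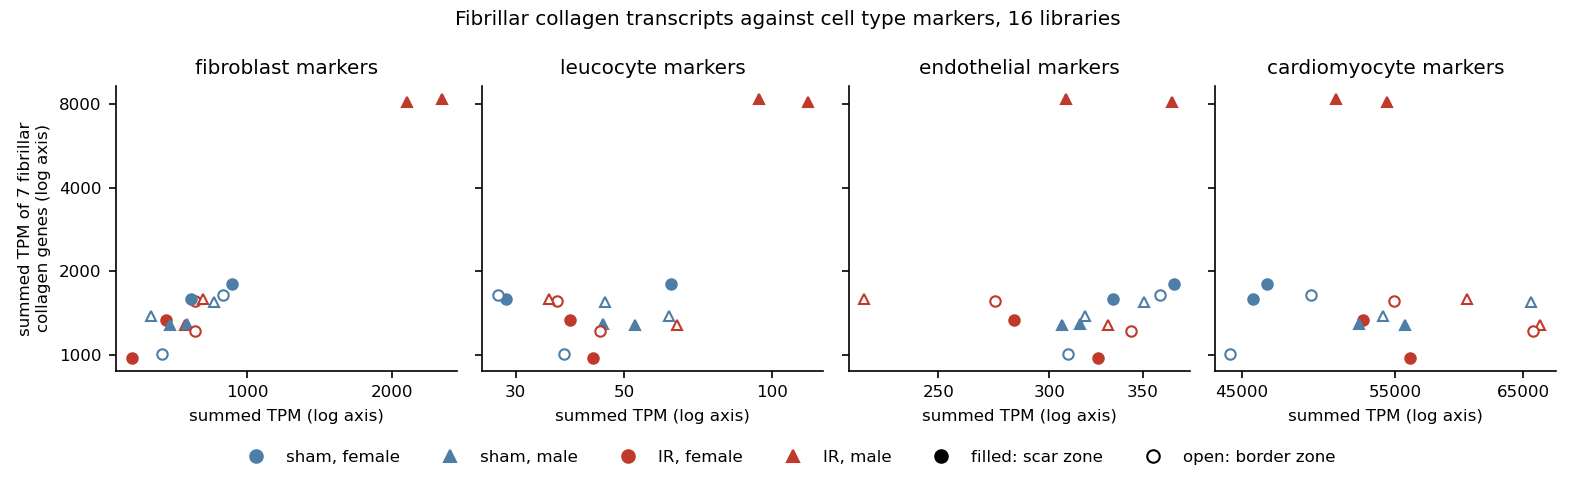
Summed TPM of the 7 fibrillar collagen genes (log axis) against the summed TPM of 4 marker lists (log axes) in 16 libraries, filled for scar and open for border zone. The scar libraries of IR pigs 9 and 11 stand apart in collagen and in fibroblast markers (2153 and 2537 TPM). For the sum of the cardiomyocyte markers they lie within the other libraries.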

How the data were processed

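Transcripts were measured in 16 libraries by RNA sequencing. The authors deposited estimated counts and TPM per gene from kallisto 0.43.1 against Ensembl pig cDNA; the submitters' processing notes also name Trimmomatic 0.33 and HISAT2 2.0.5, and the genome build is not given in the sources used here. Estimated counts were rounded and tested with edgeR 4.0.16 in R 4.3.3 (quasi-likelihood, TMM scaling, filterByExpr with a minimum count of 10 and total of 15), a script first checked on simulated data. CPM used TMM-scaled totals, and 3 counts, the floor, equal 0.0612 to 0.194 CPM. DESeq2 1.42.0, limma 3.58.1 on log2(TPM + 1) and other settings were alternatives. Ratios used TPM and two-sided exact permutation. The members, lists and tests were chosen with earlier results of these data known. Named genes were by rule all members, the highest and lowest 2 of each pathway list and the 10 most alike, and other named genes were chosen after their values were seen. Both zones came from the same pig: correlations of same-pig deviations from group means were 0.354 to 0.692. No 2 libraries were identical (r 0.971 to 0.998). The study's unwanted-variation factors are not specified, so none entered the main model. No sequence or coordinate is given.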

Additional observations from a re-analysis of the deposited data

Results flagged for a closer look

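Among the border zone libraries of IR pigs, *COL5A1* in pig 2 stood apart from the other 3 pigs, at 8.34 log2 CPM against 7.47 to 7.53. Of 52 groups of 4 pigs (7 genes and 6 ratios in 4 groups) it was the 1 whose gap, as a share of the group's range, exceeded Dixon's critical value for 4 samples. Chance alone puts about 1 group in 20 past that value, which over 52 groups is more than the 1 seen. The IR effect in the scar zone differed between the sexes by the edgeR interaction test for 5 members, larger in males by 3.15 for *COL1A1*, 3.0 for *COL1A2*, 2.73 for *COL3A1*, 2.10 for *COL5A1* and 2.25 for *COL5A2* on the log2 scale, from 2 pigs of each sex per surgery.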

How the results depend on the processing

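Counts of members called after adjustment stayed at 0 for IR against sham in the scar zone except with DESeq2 (1). Members higher at the unadjusted p there numbered 3, and 1 of 6, 1 of 6 and 0 of 7 with limma on log2(TPM + 1), on log2(TPM + 0.1) and without a filter (the TPM filter removed *COL11A1* from the first 2 in every comparison), 1 with sex as a covariate, and 2 to 6 when pigs were left out in turn (6 without pig 14, 5 without pig 2). In the border zone the count was 0 to 1 (1 without pig 13). For the scar-minus-border difference, limma gave 0 in all 3 settings and leaving out pigs gave 0 (pigs 9 and 13) to 6 (pig 2). For scar against border in IR pigs limma gave 1, 1 and 0, and leaving out pigs gave 1 to 6. With the pig as replicate block the last 2 counts fell from 3 to 1, and the block changed no other call. For the sex difference, leaving out pigs gave 0 to 5, and in males 2 (pigs 12 and 13) to 6; a sex then left with 1 pig in a surgery is assumed to vary like the others. The 18 chain ratios kept their direction under estimated counts and TPM + 1, where 4 and 5 had an exact p of 0.0286, the added one being the within-pig *COL11A1* to *COL5A1* ratio; the two-sided p doubles the smaller tail and so cannot go below 0.0571 for 3 pigs against 4, and leaving out pigs is given as values only.

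Signs changed only near 0, besides the sex difference in the border zone. For the border zone, *COL1A2* became -0.0199 with upper-quartile scaling, -0.0044, -0.0045 and -0.0044 with the 3 limma settings and -0.0303 with 1 factor of unwanted variation, *COL3A1* became 0.0090 with limma, and *COL5A2* became -0.0160 and -0.0156 with upper-quartile scaling and the factor. Leaving out pigs moved border zone values between -0.0522 and 0.31 (*COL1A1*), -0.16 and 0.18 (*COL1A2*), -0.15 and 0.0648 (*COL3A1*), -0.18 and 0.18 (*COL5A1*), -0.10 and 0.10 (*COL5A2*) and -0.34 and 0.0037 (*COL5A3*), and the scar zone value of *COL5A3* between -0.0674 and 0.16. For scar against border in sham-operated pigs the ranges were -0.12 to 0.20 (*COL1A1*), -0.0404 to 0.15 (*COL1A2*), -0.0654 to 0.15 (*COL3A1*), -0.0179 to 0.37 (*COL5A1*) and -0.0620 to 0.18 (*COL5A2*), negative without pig 4. For the border zone sex difference they were -0.82 to 0.30 (*COL1A1*), -0.68 to 0.40 (*COL1A2*), -0.0988 to 0.50 (*COL3A1*), -0.39 to 0.24 (*COL5A2*) and -0.41 to 0.59 (*COL5A3*), and for females in the scar zone -0.56 to 0.18 (*COL1A1*). TPM shifted the median of all genes in the scar zone to 0.15 from 0.03.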
